A study of Mus musculus with 8 samples.

Results

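The kinetochore is the protein assembly that ties each chromosome to the mitotic spindle. It is built on centromeric chromatin marked by the histone variant CENP-A: an inner layer of CENP proteins (the constitutive centromere-associated network) sits on that chromatin, an outer layer (the KMN network of the Knl1, Mis12 and Ndc80 complexes) grips microtubules, and the spindle checkpoint holds back anaphase until every chromosome is attached. Most of its genes are transcribed late in the cell cycle, so their RNA level in a tissue depends on how many of its cells are dividing, which in the midgestation heart includes the ventricular cardiomyocytes.

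The 40 genes described here were listed by name from these roles, and all 40 were found among the 55291 gene symbols of the count table and were tested among 26820 genes. The 8 libraries come from the ventricles of mouse embryos at embryonic day 10.5, with 4 from Pkn2 fl/fl embryos carrying XMLC2-Cre (cKO) and 4 from Pkn2 fl/fl littermates without Cre (control). Both groups carry the floxed alleles, the background is given as C57BL/6N (C57BL/6 in the strain label), and the Cre is a cardiomyocyte driver, so the other cells of the ventricle keep Pkn2, which encodes a serine/threonine protein kinase. No cell type was isolated, and how many embryos went into a library is not given in the sources used here. In such bulk tissue, fewer cells of a type and less RNA per cell cannot be told apart.

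The libraries held 47559845 to 56660938 counts. Pkn2, the targeted gene, was at 81.2 ± 3.07 CPM (counts scaled for library size) in cKO and 144 ± 9.85 CPM in control (mean ± SD, n = 4 each), without overlap, and fell to 56.3% of the control level (edgeR adjusted p = 7.67e-06). All 10 cardiomyocyte markers were present, with a summed level of 31062 to 32694 CPM in cKO and 31331 to 34431 CPM in control; 8 of the 10 were lower in cKO, 2 of them at an unadjusted p under 0.05 and none past the test (lowest adjusted p = 0.109, Nkx2-5). Endothelial and endocardial markers stood apart between the groups: all 15 were higher in cKO, 7 of them past the test, with a summed level of 2041 to 2589 CPM against 1609 to 1909 CPM in control. All 10 macrophage markers were also higher, 2 past the test, at a summed 13.7 to 43.7 CPM against 7.75 to 14.1 CPM. Over all 26820 genes tested, 50.2% were lower in cKO, and 0.515% were higher and past the test. The part of these cells in the results below was not tested.

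No kinetochore or checkpoint gene passed the test between cKO and control at an adjusted p of 0.05 (edgeR quasi-likelihood test, Benjamini-Hochberg over all genes tested), where 0.858% of all genes did. The lowest adjusted p was 0.111, for Cenpp. DESeq2 called 1 of the 40 (Cenpp, adjusted p = 0.0356), where it called 686 over all genes. Without a filter on low counts edgeR called 2 (Cenpp and Spc24) and 878 over all genes. By limma-voom 0 of the 40 were called, and 168 over all genes. The estimates were below control for 36 of 40 genes, against 50.2% of all genes tested and 57.9% of the 11244 genes with a mean of at least 5 CPM, the level that every one of the 40 exceeds. Their log2 fold changes had a median of -0.11, against -0.00085 over all genes and -0.02 over genes of at least 5 CPM. At an unadjusted p under 0.05 there were 10 genes, all lower in cKO, against 6.2% of all genes and 10.8% of genes of at least 5 CPM that were lower at that level. By this measure 25.0% of the kinetochore genes stood below control, but 1 library, cKO replicate 4, carried much of the difference. Without it the estimates were lower for 26 of 40 genes, against 49.5% of all genes, with a median of -0.05. On the TPM table (limma on log2(TPM + 1)), 31 of 40 were lower, against 44.8% of all genes, with a median of -0.10. For neither of these fits was the share over genes of at least 5 CPM computed.

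**Figure D1:**
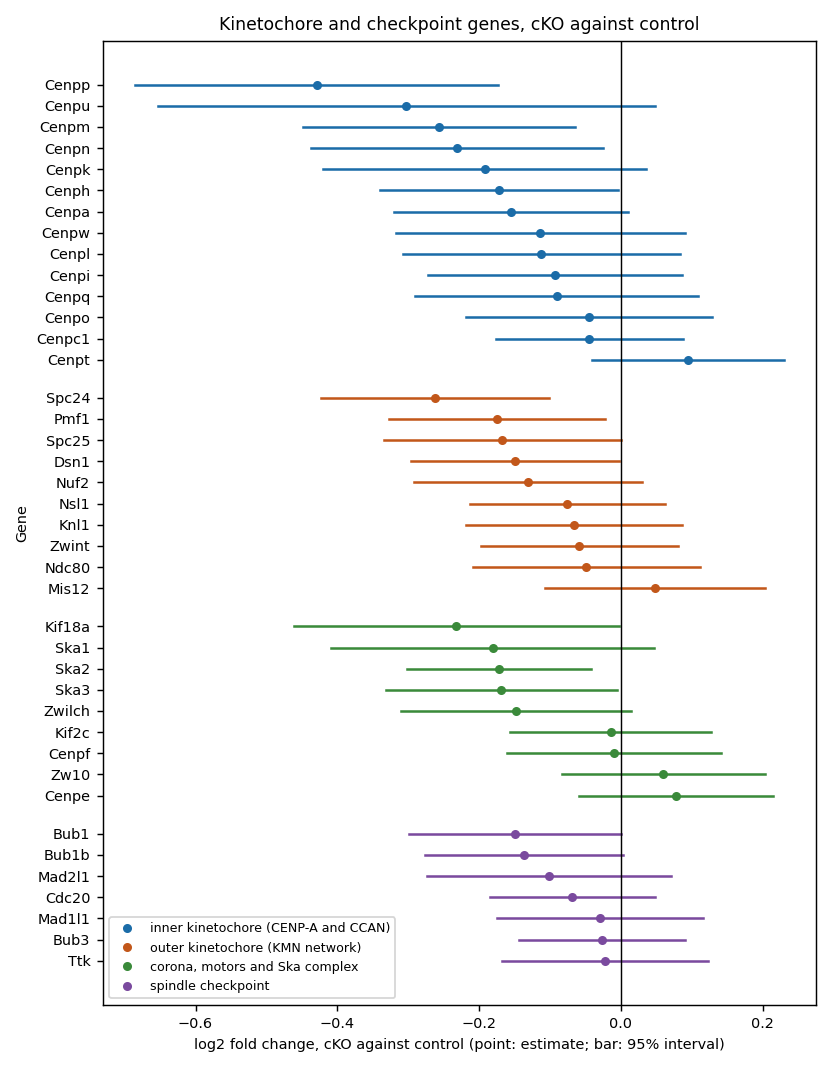
Log2 fold change of each of the 40 genes, cKO against control (x axis), by role (colour), with points for the edgeR estimate and bars for its 95% interval. Of the estimates 36 lie left of 0, and the intervals of 10 genes stay below 0 before adjustment for the number of genes tested.

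Transcript levels, compared between genes per transcript length as TPM (mean of 8 libraries), spanned a wide range. Zwint, a partner of Knl1 in the outer kinetochore, was the highest at 247 TPM, followed by Cenpa, the centromeric histone itself, at 164 TPM. Pmf1 (109 TPM), a subunit of the Mis12 complex, and Cdc20 (109 TPM), the activator of the anaphase-promoting complex that the checkpoint holds in check, came next and lay within each other's spread. The lowest were Cenpo at 8.12 TPM, Cenpl at 7.73 TPM and Cenpu at 6.45 TPM, all of the inner kinetochore. Subunits of one complex were not at one level. In the Ndc80 complex, which binds microtubules, Ndc80 was at 37.5, Nuf2 at 44.3, Spc24 at 49.7 and Spc25 at 60.03 TPM. In the Mis12 complex, which joins the inner to the outer layer, Mis12 (29.5 TPM) and Dsn1 (30.6 TPM) were close, while Nsl1 was at 9.85 TPM and Pmf1 far above. In the Ska complex, which follows the ends of microtubules, Ska2 at 53.9 TPM exceeded Ska3 at 22.04 TPM and Ska1 at 10.3 TPM.

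**Figure D2:**
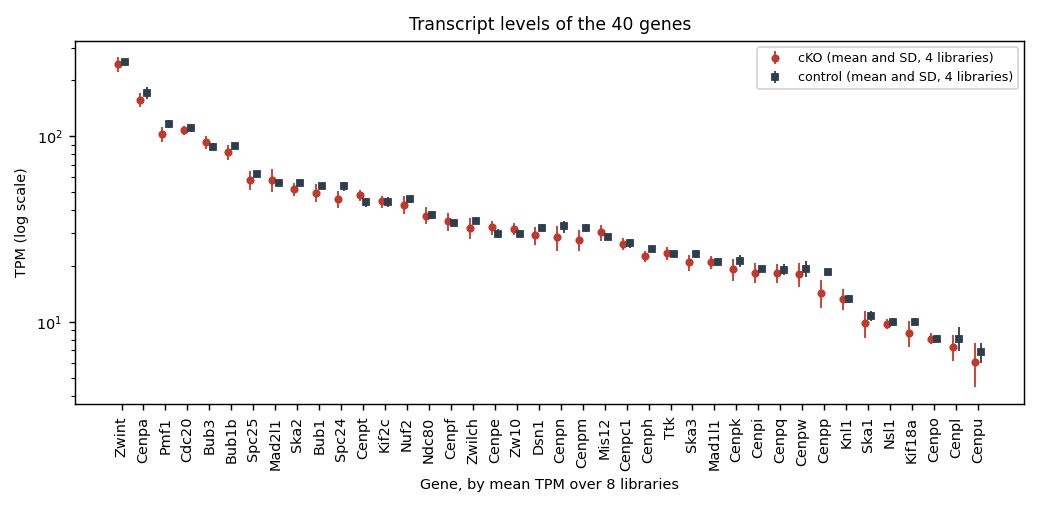
Transcript level in TPM (y axis, log scale) of the 40 genes in order of their mean over 8 libraries, with points and bars for the mean and SD of 4 cKO and 4 control libraries. Levels fall from Zwint at 247 TPM to Cenpu at 6.45 TPM, and the distance between genes is far larger than that between groups.

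Promoter sequence was at hand for 36 of the 40 genes, from RefSeq on GRCm38.p6 (250 bases before to 50 after each start site); none was at hand for Spc24, Nsl1, Zwilch and Ska1. The stretches printed here lie upstream of the gene, and were chosen because they hold, or for Cenpp lack, the motifs named next. The Cenpp stretch ends 55 bases before the start site, and none of these motifs was found in the rest of its promoter window. Capitals mark a motif on either strand: the cell cycle genes homology region (CHR, TTTGAA or TTCGAA), the CCAAT box, and an E2F-type site (TTCCCGC or TTGGCGC). Cdc20 and Cenpn hold a CHR and a CCAAT box a short distance apart, Ska3 a CHR near its start, and Ska2 a row of 3 CCAAT boxes, the first of them overlapped by an E2F-type site.
Cdc20, chr4:118437353-118437543, minus strand: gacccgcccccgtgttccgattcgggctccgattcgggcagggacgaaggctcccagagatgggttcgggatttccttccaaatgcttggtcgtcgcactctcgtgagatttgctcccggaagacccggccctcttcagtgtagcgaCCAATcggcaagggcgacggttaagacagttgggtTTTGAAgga
Cenpn, chr8:116921540-116921739, plus strand: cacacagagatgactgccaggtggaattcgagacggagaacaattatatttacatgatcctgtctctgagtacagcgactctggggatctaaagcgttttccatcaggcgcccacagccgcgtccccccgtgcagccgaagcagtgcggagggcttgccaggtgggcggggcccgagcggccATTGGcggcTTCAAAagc
Ska3, chr14:57826164-57826233, minus strand: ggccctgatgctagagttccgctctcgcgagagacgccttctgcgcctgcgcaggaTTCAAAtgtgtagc
Ska2, chr11:87109061-87109233, plus strand: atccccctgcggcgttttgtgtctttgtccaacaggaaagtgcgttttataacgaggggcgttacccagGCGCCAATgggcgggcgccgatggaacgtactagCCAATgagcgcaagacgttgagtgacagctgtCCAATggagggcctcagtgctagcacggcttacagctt
Cenpp, chr13:49652786-49652931, minus strand: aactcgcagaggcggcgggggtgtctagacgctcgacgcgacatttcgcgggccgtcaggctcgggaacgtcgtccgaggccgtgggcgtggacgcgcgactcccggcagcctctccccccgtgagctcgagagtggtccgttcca

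A CHR stood in 18 of 36 promoters (50%), against 17.6% of the 14858 tested genes with a promoter sequence. A CCAAT box stood in 23 (63.9%, against 41.9%), and an E2F-type site in 11 (30.6%, against 12%). Cenpa, Cenpf, Cenpl, Cenpm, Cenpn, Cenpw, Spc25, Pmf1, Bub1, Bub1b, Bub3, Ttk and Cdc20, 13 genes, held both a CHR and a CCAAT box. The fold changes hardly differed by the CHR, with a median of -0.11 for the 18 genes with it and -0.10 for the 18 without it. By the E2F-type site the medians were -0.17 for 11 genes and -0.09 for 25, and by the CCAAT box -0.11 for 23 and -0.07 for 13. Counting motifs on the coding strand alone turned the order for the CCAAT box, to -0.09 for 19 genes with it and -0.13 for 17 without it, and gave -0.14 for 10 genes with a CHR and -0.10 for 26 without it. A match is a stretch of letters, not a bound site, and these medians carry no test.

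The inner kinetochore held the widest range of estimates. Of its 14 genes 13 were lower in cKO (median log2 fold change -0.13), and 4 had an unadjusted p under 0.05. Cenpp, a subunit of the network on CENP-A chromatin (chr13:49464023-49652785, GRCm38), was at 6.37, 7.98, 9.21 and 6.62 CPM in cKO replicates 1 to 4 and at 10.7, 9.60, 10.4 and 9.90 CPM in control replicates 1 to 4. All 4 cKO libraries lay below all 4 controls, with cKO replicates 1 and 4 the lowest. Its level was 74.3% of the control level, with a 95% interval of 62.2% to 88.7% (log2 fold change -0.43 ± 0.12 SE, adjusted p = 0.111). Cenpp's span overlaps Ippk on the other strand by 551 bases and Ecm2 by 27980 bases. These and the later overlaps are of whole gene spans, introns included, and overlap of exons was not examined. The kit does not mark strand, so reads from any shared exon could not be told apart. Ippk, at a mean of 21.3 CPM, had a log2 fold change of -0.04, and Ecm2, at a mean of 1.27 CPM, had -0.45 (adjusted p = 0.493). The part of such reads in the value of Cenpp was not tested. Cenpm (chr15:82233779-82244748), another network subunit, was at 19.2, 16.9, 19.99 and 15.1 CPM in cKO replicates 1 to 4 and at 22.1, 21.2, 22.3 and 19.5 CPM in control replicates 1 to 4. Only cKO replicate 3 reached into the control range. Cenpm stood at 83.7% of the control level, with a 95% interval of 73.3% to 95.6% (log2 fold change -0.26 ± 0.09 SE, adjusted p = 0.216). Cenpn, which reads the CENP-A nucleosome, was at 27.2, 31.5, 31.1 and 22.03 CPM in cKO replicates 1 to 4 and at 32.6, 33.8, 29.7 and 35.1 CPM in control replicates 1 to 4. The groups overlapped, and cKO replicate 4 stood well below the other 7 libraries. For Cenpn the value was 85.2% of the control level, with a 95% interval of 73.9% to 98.3% (log2 fold change -0.23 ± 0.10 SE, adjusted p = 0.326). Cenph, part of the network's core, was at 14.9, 15.4, 17.4 and 15.3 CPM in cKO replicates 1 to 4 and at 18.9, 17.2, 17.7 and 17.01 CPM in control replicates 1 to 4. Here cKO replicate 3 lay among the controls and the other 3 cKO libraries below them. Cenph came to 88.8% of the control level, with a 95% interval of 79.01% to 99.7% (log2 fold change -0.17 ± 0.08 SE, adjusted p = 0.377).

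Cenpa, the most abundant gene of this layer, was at 104, 125, 130.2 and 110.1 CPM in cKO replicates 1 to 4 and at 144, 126, 117 and 136 CPM in control replicates 1 to 4. Its groups overlapped, with cKO replicates 1 and 4 lowest and control replicate 3 lower than both other cKO libraries. Cenpa was at 89.8% of the control level, with a 95% interval of 80.1% to 101% (log2 fold change -0.15 ± 0.08 SE, adjusted p = 0.43). The other members of the layer did not pass an unadjusted p of 0.05. Their log2 fold changes were -0.30 for Cenpu, -0.19 for Cenpk, -0.11 for Cenpw, -0.11 for Cenpl, -0.09 for Cenpi, -0.09 for Cenpq, -0.04 for Cenpo and -0.04 for Cenpc1, all subunits of the network, of which Cenpc1 (CENP-C) links CENP-A to the outer layer. Cenpt, the other link to the outer layer, had the highest log2 fold change of the 40 at 0.09 (adjusted p = 0.606), with 51.7 ± 3.61 CPM in cKO and 48.5 ± 2.49 CPM in control (mean ± SD, n = 4 each). Cenpu, Cenpq and Cenpo overlap an expressed gene on the other strand.

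In the outer kinetochore 9 of 10 genes were lower, with a median of -0.10, and 3 had an unadjusted p under 0.05. Spc24 (chr9:21755442-21760303), which anchors the Ndc80 complex to the inner layer, was at 36.9, 39.8, 40.5 and 31.3 CPM in cKO replicates 1 to 4 and at 47.1, 44.3, 43.4 and 43.1 CPM in control replicates 1 to 4. Every cKO library lay below every control. Spc24 was at 83.4% of the control level, with a 95% interval of 74.6% to 93.2% (log2 fold change -0.26 ± 0.08 SE, adjusted p = 0.122). Its binding partner Spc25 had a log2 fold change of -0.17 (adjusted p = 0.392), while the microtubule-binding pair Nuf2 and Ndc80 had log2 fold changes of -0.13 and -0.05. The log2 fold changes in this one complex thus ran from -0.26 to -0.05; the difference between them was not tested. Pmf1, of the Mis12 complex, was at 59.4, 57.97, 59.4 and 48.1 CPM in cKO replicates 1 to 4 and at 65.1, 61.4, 59.3 and 68.1 CPM in control replicates 1 to 4. The groups overlapped, and 3 cKO libraries were within 2 CPM of each other with replicate 4 far below. Pmf1 was at 88.6% of the control level, with a 95% interval of 79.7% to 98.5% (log2 fold change -0.17 ± 0.07 SE, adjusted p = 0.311). Dsn1, of the same complex, was at 39.5, 38.6, 39.4 and 32.1 CPM in cKO replicates 1 to 4 and at 41.9, 41.7, 41.8 and 40.5 CPM in control replicates 1 to 4. Its groups did not overlap, but 3 cKO libraries came close to the lowest control, and replicate 4 was far lower. Dsn1 stood at 90.2% of the control level, with a 95% interval of 81.4% to 99.8% (log2 fold change -0.15 ± 0.07 SE, adjusted p = 0.382).

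The other members of the Mis12 complex were Nsl1 at a log2 fold change of -0.08 and Mis12 at 0.05, the 1 gene of the outer layer above control. Knl1, the scaffold on which checkpoint proteins gather, had a log2 fold change of -0.07. Zwint, the most abundant of all 40, was at 246, 259.6, 249 and 212 CPM in cKO replicates 1 to 4 and at 249, 239, 249.9 and 268 CPM in control replicates 1 to 4. Only cKO replicate 4 lay below the controls, and cKO replicate 2 was above 3 of them. Zwint came to 96.04% of the control level, with a 95% interval of 87.2% to 106% (log2 fold change -0.06 ± 0.07 SE, adjusted p = 0.799), and its log2 fold change was 0.0073 without cKO replicate 4.

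**Figure D3:**
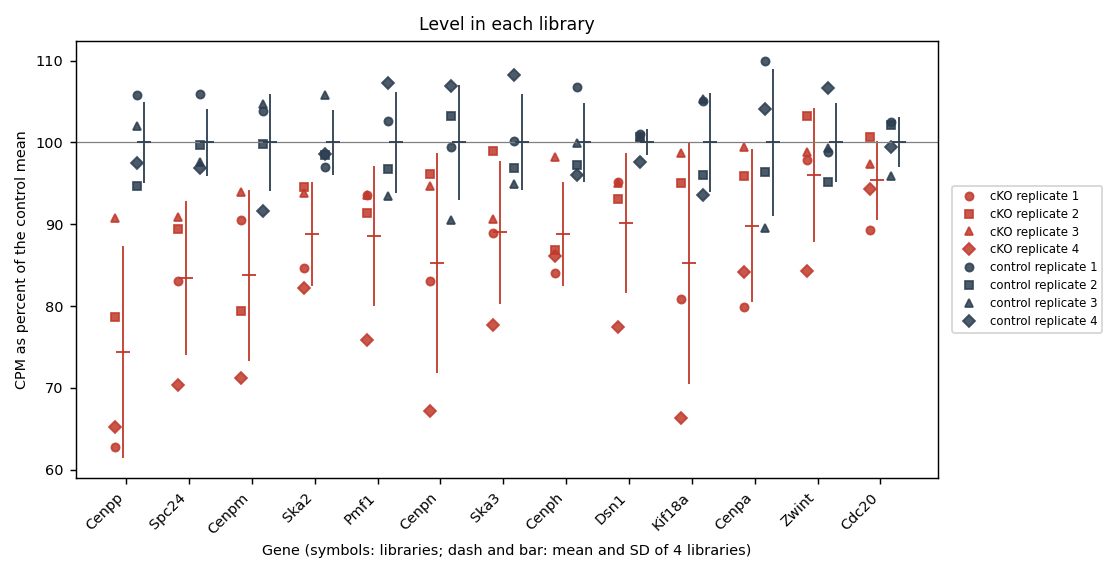
Level of 13 genes in each library as a percent of the control mean of that gene (y axis), with a symbol for each replicate, red for cKO and dark for control, and dashes and bars for the mean and SD of 4 libraries. The diamonds of cKO replicate 4 are the lowest red points for most genes, and only Cenpp, Spc24, Ska2 and Dsn1 show no overlap of the groups.

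Among the corona proteins, motors and the Ska complex, 7 of 9 genes were lower, with a median of -0.15, and 3 had an unadjusted p under 0.05. Ska2 (chr11:87109234-87124635), whose promoter with the row of CCAAT boxes is printed above, was at 59.8, 66.9, 66.4 and 58.1 CPM in cKO replicates 1 to 4 and at 68.6, 69.7, 74.8 and 69.8 CPM in control replicates 1 to 4. The groups did not overlap, and cKO replicates 1 and 4 were the lowest. Ska2 was at 88.8% of the control level, with a 95% interval of 81.2% to 97.1% (log2 fold change -0.17 ± 0.06 SE, adjusted p = 0.222). Ska3, of the same complex, was at 26.4, 29.3, 26.9 and 23.01 CPM in cKO replicates 1 to 4 and at 29.7, 28.7, 28.1 and 32.1 CPM in control replicates 1 to 4. Only cKO replicate 2 lay within the control range. Ska3 came to 88.98% of the control level, with a 95% interval of 79.5% to 99.6% (log2 fold change -0.17 ± 0.08 SE, adjusted p = 0.374), and it shares 78 bases with Sap18 on the other strand. Ska1 had a log2 fold change of -0.18, close to these, with a wider error (adjusted p = 0.537). Kif18a, a kinesin that dampens chromosome movement on the spindle, was at 15.4, 18.1, 18.8 and 12.6 CPM in cKO replicates 1 to 4 and at 20.05, 18.3, 20.1 and 17.8 CPM in control replicates 1 to 4. Its cKO replicates 2 and 3 lay among the controls and replicates 1 and 4 below them. Kif18a was at 85.1% of the control level, with a 95% interval of 72.6% to 99.8% (log2 fold change -0.23 ± 0.11 SE, adjusted p = 0.382).

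The log2 fold changes of the remaining genes spread to both sides of 0. Zwilch, of the complex that recruits dynein, had a log2 fold change of -0.15, while its partner Zw10 had 0.06. Cenpe, a kinesin that carries chromosomes to the spindle equator, had a log2 fold change of 0.08, with 141 ± 11.2 CPM in cKO and 134 ± 7.09 CPM in control (mean ± SD, n = 4 each). Cenpf, a large corona protein, had a log2 fold change of -0.0090, and Kif2c, a kinesin that takes microtubules apart, had -0.01.

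All 7 spindle checkpoint genes had estimates below control, with a median of -0.07, the nearest to 0 of the 4 groups, and none at an unadjusted p under 0.05. On log2(TPM + 1) only 4 of the 7 were lower, with a median of -0.01. Cdc20, the target of the checkpoint, was at 100.3, 113, 109 and 106 CPM in cKO replicates 1 to 4 and at 115, 115, 108 and 112 CPM in control replicates 1 to 4. The groups overlapped, and cKO replicate 1 was the lowest. Cdc20 was at 95.4% of the control level, with a 95% interval of 87.96% to 103% (log2 fold change -0.07 ± 0.05 SE, adjusted p = 0.693). The kinase Bub1 had a log2 fold change of -0.15 (adjusted p = 0.391), and Bub1b, whose product BubR1 binds Cdc20, had -0.14. Mad2l1, which also binds Cdc20, had a log2 fold change of -0.10, and its anchor Mad1l1 -0.03. Bub3, the partner of both Bub proteins, had a log2 fold change of -0.03, and Ttk, the kinase that starts the signal, -0.02. Cdc20 and Bub3, like Mis12 of the outer layer, overlap an expressed gene on the other strand. The interval for Ttk ran from 89.0% to 109% of the control level, which bounds but does not exclude a small difference.

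The count of genes whose 4 cKO libraries all lay below all 4 controls was 4 (Cenpp, Spc24, Ska2 and Dsn1), or 10%, against 3.77% of all genes and 6.74% of genes of at least 5 CPM. No gene had all cKO libraries above all controls, against 3.14% of all genes.

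The difference was not even across the cKO libraries. For 32 of the 40 genes cKO replicate 4 was the lowest of all 8 libraries, against 15.6% of all genes and 23.0% of genes of at least 5 CPM, and for 5 more it was cKO replicate 1, against 19.2% of all genes. The median level over the 40 genes was 90.7%, 100.1%, 97.2% and 82.3% of the control mean in cKO replicates 1 to 4. The 40 genes summed to 2318, 2499, 2423 and 2057 CPM in these libraries, and to between 2395 and 2528 CPM in the controls. Thus cKO replicates 2 and 3 lay in the control range by this sum and replicates 1 and 4 below it. The variation between libraries was also larger in cKO: the median coefficient of variation was 10.4% against 4.88% in control, and it was larger in cKO for 38 of 40 genes, where 64.9% of genes of at least 5 CPM had it larger. Without cKO replicate 4 it was larger for 28 of 40, a count for which no share over other genes was computed.

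Other gene groups differed in the same libraries. The 15 genes of general cycling (DNA replication and cyclins) had a mean log2 level relative to control of -0.08, 0.02, -0.06 and -0.25 in cKO replicates 1 to 4, and the 40 kinetochore genes had -0.13, -0.0025, -0.03 and -0.31. Endothelial and endocardial markers had 0.52, 0.24, 0.19 and 0.63 in the same libraries, so that the 2 libraries lowest in kinetochore genes were the 2 highest in these markers. Macrophage markers were also highest in cKO replicates 1 and 4, at 2.75, 1.13, 0.91 and 1.98. Cardiomyocyte markers had -0.10, -0.07, -0.05 and -0.09 in cKO replicates 1 to 4, and between -0.05 and 0.04 in the controls. By this mean they too were lowest in cKO replicates 1 and 4, but by summed level the order differed. The sums were 32694, 31537, 32013 and 31062 CPM in cKO replicates 1 to 4, highest in replicate 1. Erythroid markers, 10 of 10 higher and none past the test, summed to 1410 to 4911 CPM in cKO and 1536 to 4753 CPM in control. Epicardial and cushion markers were split, with 5 of 10 higher and only Vcan past the test. Hepatic markers, 7 of 10 tested, were lower in all 7 and none passed, with a sum of up to 28.3 CPM in control replicate 1 and at most 3.39 CPM in cKO. Over all genes tested 50.2% were lower in cKO and 0.858% passed the test. How far these cells account for the values of the kinetochore genes was not tested.

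**Figure D4:**
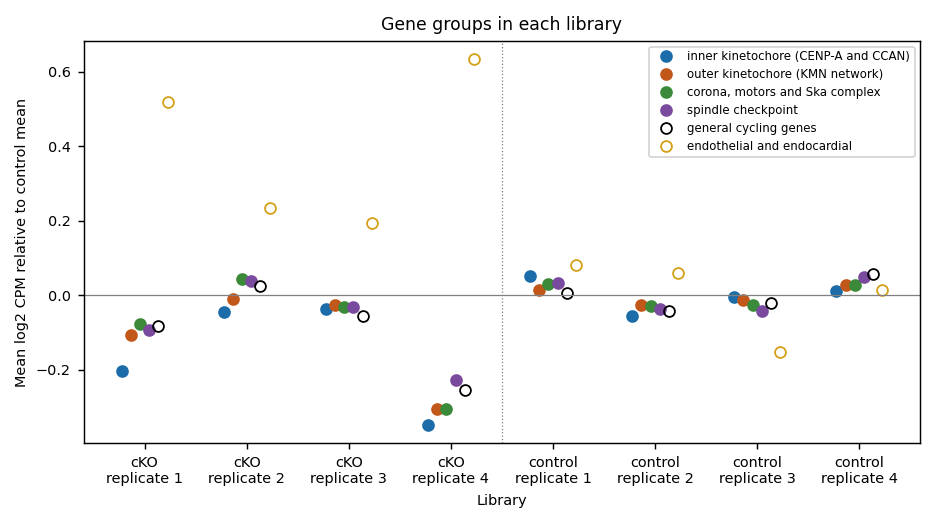
Mean log2 level of each gene group relative to the control mean (y axis) in each of the 8 libraries (x axis), with filled points for the 4 kinetochore groups and open points for general cycling and endothelial and endocardial genes. In cKO replicates 1 and 4 the kinetochore groups are lowest and the endothelial markers highest, at 0.52 and 0.63.

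Without cKO replicate 4 the test called none of the 40 genes, and the lowest adjusted p was 0.224 (Cenpp); 3 genes lower in cKO had an unadjusted p under 0.05, against 5.55% of all genes, and 1 gene was higher at that level (Cenpe, log2 fold change 0.14, against 5.78% of all genes). Checkpoint genes then had a median of -0.0058, with 4 of 7 lower. Leaving out cKO replicates 1 and 4 together, a choice made after seeing these levels, left 22 of 40 lower, near the 50.6% of all genes that were lower in that fit, and a median of -0.0090. Shares over genes of at least 5 CPM were not computed for these fits.

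**Figure D5:**
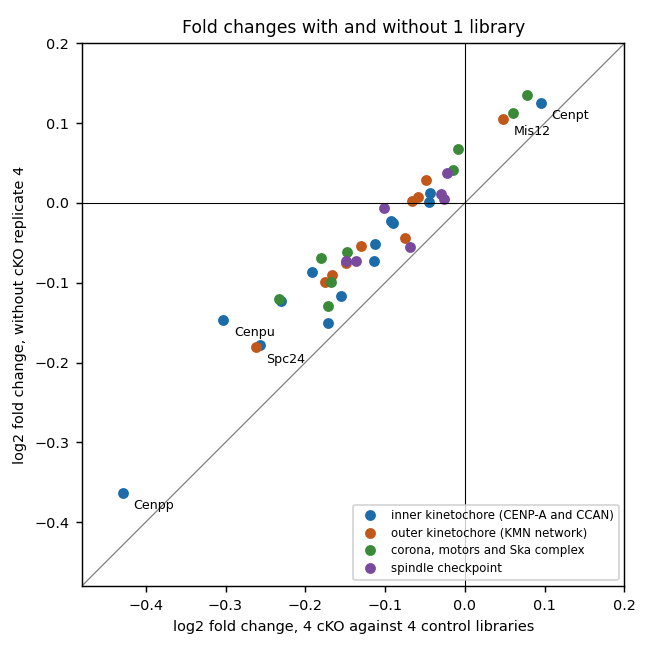
Log2 fold change of each gene from 4 against 4 libraries (x axis) and from the fit without cKO replicate 4 (y axis), coloured by role, with the line of equal values. All points lie above that line, and Cenpp stays lowest at -0.43 and -0.36.

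Among the 40 genes the estimates differed by transcript length, but no such split was made over all genes and the difference was not tested. Split by the length implied by the deposited counts and TPM, the 20 shorter genes had a median of -0.17 and 9 of the 10 genes with an unadjusted p under 0.05, and the 20 longer genes had -0.06 and 1. This split was added after the data had been seen, as the annotated exon length ranked the genes differently (Spearman's rho 0.32 over 40 genes); by annotated length the medians were -0.14 and -0.07, with 6 and 4 genes. With a trend on annotated or on implied length removed from every library, the median over the 40 genes was -0.11 or -0.12, and 36 were lower with either.

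Of 47 further genes of the kinetochore, centromere, passenger complex and anaphase-promoting complex, 35 were lower. The share was 50.2% of all genes and 57.9% of genes of at least 5 CPM. An unadjusted p under 0.05 was found for 10, all of them lower, against 6.2% and 10.8%, and none passed the test. Their mean log2 level relative to control was -0.09, 0.00036, -0.03 and -0.16 in cKO replicates 1 to 4, again lowest in replicate 4. The lowest adjusted p was 0.0626, for Fzr1, named here after its value was seen, an activator of the anaphase-promoting complex. Of the 15 general cycling genes 13 were lower, against the same 50.2% and 57.9%, with a median of -0.06. Of these, 3 were at an unadjusted p under 0.05, against the same 6.2% and 10.8%, and none passed the test.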

How the data were processed

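RNA-seq of 8 ventricular libraries (4 cKO, 4 control) was analysed. The deposited tables hold unnormalized counts for each gene symbol, and TPM (scaled by the authors for transcript length and library size). Per the submitters' processing notes the tools included Trim Galore 0.6.7, HISAT2 2.2.1, StringTie 2.2.1 and featureCounts; the strand setting and the treatment of reads with several matches are not given in the sources used here. The methods name GRCm39, but 37 of the 40 gene starts lay within 1000 bases of GRCm38 and 0 of GRCm39, so positions are given on GRCm38.

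Counts were tested with edgeR 4.0.16 (R 4.3.3; TMM scaling, genes with at least 8 counts in all, condition as the only term, Benjamini-Hochberg at 0.05). CPM are TMM-scaled, and depth was 47559845 to 56660938 counts per library. DESeq2 1.42.0, limma 3.58.1 (voom, and log2(TPM + 1) or log2(TPM + 0.1)), other scalings, filters, a replicate block, removal of a length trend and leaving out each library were alternatives. Fold changes on TPM are on the log2(value + pseudocount) scale. The members, roles and lists were chosen with earlier results of these data known. Values in every library are given for the 10 genes with the lowest unadjusted p and the most abundant gene of each role. On simulated counts for cKO against control (25965 genes), 87% of 2-fold and 63% of 1.41-fold changes were called and 7.41% of calls were false. No smaller change was simulated. The largest estimate among the 40 genes, a log2 fold change of -0.43 for Cenpp, was below 1.41-fold. How often changes of their size would be called was therefore not tested. Libraries are labelled as biological replicates.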

Additional observations from a re-analysis of the deposited data

Results flagged for a closer look

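Among 82 groups of 4 libraries (the 40 genes and Pkn2 in both conditions), 4 held a library far from the other 3 by Dixon's test, where chance flags about 1 group in 20. Dsn1 had cKO replicate 4 apart at 32.1 CPM and control replicate 4 apart at 40.5 CPM. Pmf1 had cKO replicate 4 apart at 48.1 CPM. Ska1 had control replicate 1 apart at 18.1 CPM, above the other controls.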

How the results depend on the processing

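Between 22 and 36 of the 40 genes had an estimate below control in each fit. How many, and whether any was called, depended on the processing. Of the 40, DESeq2 called 1 (Cenpp, adjusted p = 0.0356) and edgeR without a filter on low counts called 2 (Cenpp, 0.0471, and Spc24, 0.0437). Leaving out single libraries gave 26 to 36 lower and a median of -0.16 to -0.05. These edgeR fits called 0 to 1 of the 40. The 1 was Cenpp without cKO replicate 3 (adjusted p = 0.0241), in a fit that called 744 over all genes. Of the 47 further genes, DESeq2 called 1, no filter 3, and removal of the annotated or the implied length trend 1 each, and leaving out single libraries 0 to 1. Over all genes, calls numbered 686 with DESeq2, 878 without a filter, and 275 and 294 with the annotated and the implied length trend removed. They numbered 2 and 5 by limma on log2(TPM + 1) and log2(TPM + 0.1), 103 without cKO replicates 1 and 4, and 67 to 744 when single libraries were left out. The cause of this spread was not tested. Without cKO replicates 1 and 4, 22 of the 40 were lower, near the 50.6% of all genes in that fit. The difference in median between genes with and without a CHR was -0.016 on both strands and -0.046 on the coding strand alone. Zwint turned from below to above control without cKO replicate 4 (0.0073; -0.085 to 0.0073 over single libraries left out) and without cKO replicates 1 and 4 (0.024).

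Whether the replicate numbers pair libraries by litter is not given in the sources used here. Same-numbered libraries' deviations correlated at -0.19, -0.03, 0.0056 and -0.14 over 14302 genes. Differently numbered libraries were not compared in this way, so these values cannot decide whether the libraries are paired. With the replicate block 0 of the 40 were called, 36 were lower and the median was -0.12; over all genes 380 were called, and 428 with the block and the length trend removed.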
